A study of Rattus norvegicus with 105 samples.

Results

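Collagens, laminins and integrins were followed as a gene group in primary rat hepatocytes exposed for 24 hours to the nitroalkanes nitromethane (NM), nitroethane (NE) or 1-nitropropane (1NP). A detector probe belonged to the group when its gene symbol had the form of a collagen chain (Col1a2), a laminin chain (Lama, Lamb or Lamc with a number) or an integrin subunit (Itga or Itgb). The rule matched 88 of the 22253 probes (80 symbols). Of these, 44 probes (41 symbols) reached 1 CPM (the probe's count scaled to a common library total) in at least 3 libraries and were tested, and the other 44 dropped out, while 13223 probes of the whole table were kept by the same filter. By family, 20 of 48 collagen probes, 6 of 10 laminin probes and 14 of 26 integrin probes were kept. A further 4 of 4 probes match by name alone and encode no chain of these families: Col4a3bp (the ceramide transfer protein), Itgb1bp1, Itgb1bp2 and Itgb3bp.

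Type IV collagen and laminin are the 2 self-assembling networks of the basement membrane, the thin protein sheet under epithelia and around vessels. A laminin is a trimer of an alpha, a beta and a gamma chain, and a type IV collagen molecule is a trimer in which the chains Col4a1 and Col4a2 are the common pairing. Integrins are pairs of an alpha and a beta chain that bind these proteins outside the cell and couple them to actin or, through Itgb4, to keratin filaments inside it. In intact liver the hepatocyte faces a space that holds little laminin, and bile duct epithelium rests on a true basement membrane. On a stiff culture dish hepatocytes are known to spread and to gain matrix and adhesion gene expression.

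All cells were hepatocytes of female Sprague-Dawley rats from a single commercial lot, plated in 96-well plates coated with type I collagen. Each group had n = 3 wells. NM, NE and 1NP were given at 8 concentrations from 0.003 to 10 mM. Reference compounds were benzo[a]pyrene (BaP, an activator of the aryl hydrocarbon receptor) at 50 µM and WY14643 (WY, an activator of PPAR-alpha). CITCO, an activator of the human receptor CAR, was given at 10 and 20 µM. Rifampin, an activator of the human receptor PXR, was given at 20 and 40 µM. Whether these 2 compounds activated the rat receptors was not tested here. The controls were DMSO vehicle and plain medium. Both WY groups are titled 50 µM, but the library names of the WY wells of set 2 say 100 µM, so their dose is uncertain and the 2 WY groups are not treated as repeats of each other. NM, NE, BaP, CITCO, rifampin and a WY group stood in set 1, 1NP and another WY group in set 2, and each set had its own DMSO and medium wells. Expression was read with TempO-Seq, in which pairs of short oligonucleotides are joined on each target RNA and counted by sequencing. Replicates are wells of a single lot of cells, so p-values measure the spread between wells. Concentration ran along the plate rows and compounds along its columns, and DMSO lay in another row than medium, so these cannot be told apart from plate position. The labels do not say whether nitroalkane wells held DMSO, and each group is therefore set against both controls. Probes differ in yield, so levels are compared between samples and not between genes. In these bulk libraries, fewer cells of a type and less RNA per cell cannot be told apart.

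Library totals ran from 5475419 to 11122665 counts (median 8680678), so that 3 counts correspond to 0.27 to 0.548 CPM, counting error only. Correlations of log2 CPM with the other libraries of a group had a median of 0.9911 and a lowest value of 0.9359. NE 10 mM replicate 2 had counts in 21627 probes, against a median of 13792. Of the 44 members that dropped out, 37 had their highest level in that library, up to 3.861 CPM, and 16 had fewer than 10 counts in every library. Among those that dropped out were Col1a1 and Col3a1, the fibrillar collagens of scar tissue, the laminin alpha chains Lama1, Lama2 and Lama4, and the integrins Itga4, Itgb3 and Itgb6. A further 11 kept members were also highest in that library. The library labelled 1NP 10 mM replicate 3 correlated at 0.985 with the mean of NE 10 mM and at 0.9435 with the rest of its own group, and NM 10 mM replicate 3 at 0.9359 with its own group. Member counts at 10 mM that rest on these libraries are given with and without them. Just inside the filter were Itga2b and a probe of Col4a4, with 3 libraries at 1 CPM, and just outside it were Col5a3, Col6a1 and Col11a2, with 2.

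NE at 10 mM lowered laminin chains, the type IV collagen chain Col4a2 and 4 of the 8 integrin subunits with at least 10 CPM in the control libraries (Itga3, Itga5, Itgav and Itgb4) against both controls. In the test used throughout (edgeR's quasi-likelihood test, p-values adjusted by Benjamini-Hochberg across every kept probe of the table, called under 0.05), 13 of the 44 kept members fell and 6 rose against DMSO. Of all kept probes 28.6% were called there, 15% lower and 13.6% higher. Against medium, 16 members fell and 5 rose, where 33.3% of all probes were called, 16.9% lower and 16.5% higher. A common set of 12 members fell against both controls (12.3% of all probes did), and Itga1, Itgb3bp and Col20a1 rose against both (10.6%). Over the 18 members with at least 10 CPM in the control libraries, 11 fell and 2 rose against DMSO, while 22% of all 7565 probes at that level fell and 13.8% rose. Against medium the same 18 gave 11 falls and 1 rise, beside 24.3% and 17.7% of all such probes. The median log2 change of the kept members was -0.13 against DMSO (0.06 over all probes) and -0.33 against medium (0.06 over all probes). Without NE 10 mM replicate 2 the counts were 15 lower and 2 higher against DMSO (24.3% of all probes called) and 16 lower and 3 higher against medium (29.5%).

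Among the laminins, alpha, beta and gamma chains fell. The beta chain Lamb2, found in mature basement membranes, had 22.9, 20.5 and 19 CPM in NE wells, 50.1, 63.1 and 76.1 CPM in DMSO wells and 68.4, 72.9 and 94.3 CPM in medium wells. Lamb1, the beta chain of many developing and adult laminins, had 3.84, 2.4 and 3 CPM in NE wells, 8.29, 11.1 and 11 CPM in DMSO wells and 8, 10.1 and 9.11 CPM in medium wells. For both beta chains every NE well was below every control well, and changes are given against DMSO and then against medium. Lamb2 fell by 1.65 ± 0.167 on the log2 scale (SE; edgeR adjusted p = 7.33e-09) and by 1.92 ± 0.167 (adjusted p = 2.52e-10), and Lamb1 by 1.76 and 1.55.

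The alpha chain Lama5, the main one of adult epithelial and vascular basement membranes, had 8.05, 9.19 and 7.88 CPM in NE 10 mM wells, against 17.5, 20.4 and 15.3 CPM in DMSO wells and 21, 18.5 and 26.5 CPM in medium wells. Lamc1, the gamma chain shared by most laminins, had 791, 621 and 745 CPM in NE wells, against 1270, 1380 and 1410 CPM in DMSO wells and 1160, 1030 and 1170 CPM in medium wells. Neither gene's NE wells overlapped the controls: Lama5 fell by 1.15 and 1.41 and Lamc1 by 0.95 and 0.63 on the log2 scale. Lamb3, a beta chain of epithelial laminin, differed from the other beta chains in its pattern. Its levels were 39.2, 43.4 and 52.3 CPM in NE wells, 34.1, 41.6 and 37.7 CPM in DMSO wells and 91.4, 83.2 and 84.4 CPM in medium wells. The NE wells thus overlapped DMSO (log2 difference 0.20, not called) and lay under medium, against which Lamb3 fell by 0.95.

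Col4a2, a chain of the ubiquitous type IV collagen, had 170, 110 and 144 CPM in NE 10 mM wells, against 300, 343 and 304 CPM in DMSO wells and 402, 351 and 442 CPM in medium wells. The ranges did not overlap, and it fell by 1.19 ± 0.153 against DMSO (edgeR adjusted p = 5.81e-07) and by 1.48 against medium. Col18a1, the collagen from which endostatin is cut, fell by 0.78 and 0.92. Col4a5, another type IV chain, had 67.2, 61.9 and 64.6 CPM in NE wells, 63.5, 68.5 and 90.9 CPM in DMSO wells and 75.2, 84.8 and 78.9 CPM in medium wells, and was not called (log2 differences -0.25 and -0.30). Of the 12 members lower against both controls, all but Col18a1 kept both calls under every alternative processing run.

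The integrin chains did not all move together. Itga3, the alpha chain that pairs with Itgb1 in a laminin receptor, had 23, 16.1 and 18.3 CPM in NE 10 mM wells, against 107, 119 and 131 CPM in DMSO wells and 122, 125 and 149 CPM in medium wells. It fell by 2.67 ± 0.17 against DMSO (edgeR adjusted p = 4.53e-13) and by 2.78 ± 0.17 against medium (adjusted p = 1.98e-13), to 0.157 and 0.146 of the control level, with no overlap. Itgb4, the beta chain of the hemidesmosome, had 34, 30.2 and 26.4 CPM in NE wells, 96, 84.8 and 89.3 CPM in DMSO wells and 115, 123 and 94.5 CPM in medium wells. It too fell in every NE well, by 1.63 ± 0.159 and 1.88 ± 0.16. The partner of Itga3 did not follow: Itgb1, shared by most matrix receptors, had 296, 217 and 228 CPM in NE wells, 237, 228 and 196 CPM in DMSO wells and 233, 208 and 232 CPM in medium wells. Its groups overlapped and its log2 differences were 0.12 (95% interval -0.29 to 0.53) and 0.15 (-0.27 to 0.56).

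Itgav, the alpha chain of receptors for vitronectin and for the latent form of TGF-beta, had 58.8, 45.5 and 78.1 CPM in NE 10 mM wells, against 138, 158 and 189 CPM in DMSO wells and 202, 212 and 223 CPM in medium wells, a fall of 1.44 and 1.79. Itgb8, a beta partner of Itgav in binding latent TGF-beta, had 0.867, 1.6 and 0.888 CPM in NE wells, against 7.22, 5.53 and 5.46 CPM in DMSO wells and 6.26, 4.89 and 4.44 CPM in medium wells. It fell by 2.52 ± 0.44 (edgeR adjusted p = 6.23e-05) and 2.25 ± 0.443 (adjusted p = 0.000196), and no NE well reached a control well. Itga5, the alpha chain of the classic fibronectin receptor, fell by 0.88 and 1.00, with NE wells at 8.42, 13.3 and 9.77 CPM, DMSO wells at 13.5, 19.7 and 21.9 CPM and medium wells at 18.1, 19.2 and 24.3 CPM. Itga1, the alpha chain of a collagen receptor with Itgb1, went the other way. It had 103, 93.6 and 91.9 CPM in NE wells, 63.5, 58.3 and 55.4 CPM in DMSO wells and 77.7, 75.4 and 76.3 CPM in medium wells, above every control well, and rose by 0.65 and 0.33 on the log2 scale. The rise of Itga1 over DMSO kept its call in 13 of 13 alternative processing runs. Its smaller rise over medium lost the call in 7 of 13.

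Apart from Itga1, the members that rose at NE 10 mM were mostly near the detection floor. Col20a1, a fibril-associated collagen, had 3.47, 18.6 and 5.88 CPM in NE wells, against 1.66, 0.691 and 0.446 CPM in DMSO wells and 0.696, 1.5 and 0 CPM in medium wells, and rose by 3.15 and 3.55. The 18.6 CPM came from replicate 2, the library with counts in many more probes. Without it the change of Col20a1 over DMSO was 2.36 and was not called (edgeR adjusted p = 0.0529), and over medium it was 2.76 (adjusted p = 0.0228). Itgb3bp, a centromere protein in spite of its symbol, rose by 1.21 and 0.97, calls lost in 2 of 13 and 5 of 13 alternatives. Itga9 rose against DMSO alone (0.79). The other calls against a single control were Col11a2, Itga2b, Col6a2 and Itgb2, low probes of cartilage, platelet, beaded-filament and leukocyte chains. Without NE 10 mM replicate 2, Itga9 (0.72 over DMSO, edgeR adjusted p = 0.0695) and these 4 also lost the call, and Itga1 and Itgb3bp alone rose against both controls. Members such as these can enter the tested set through the NE 10 mM wells alone, so their rises support no count.

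**Figure D1:**
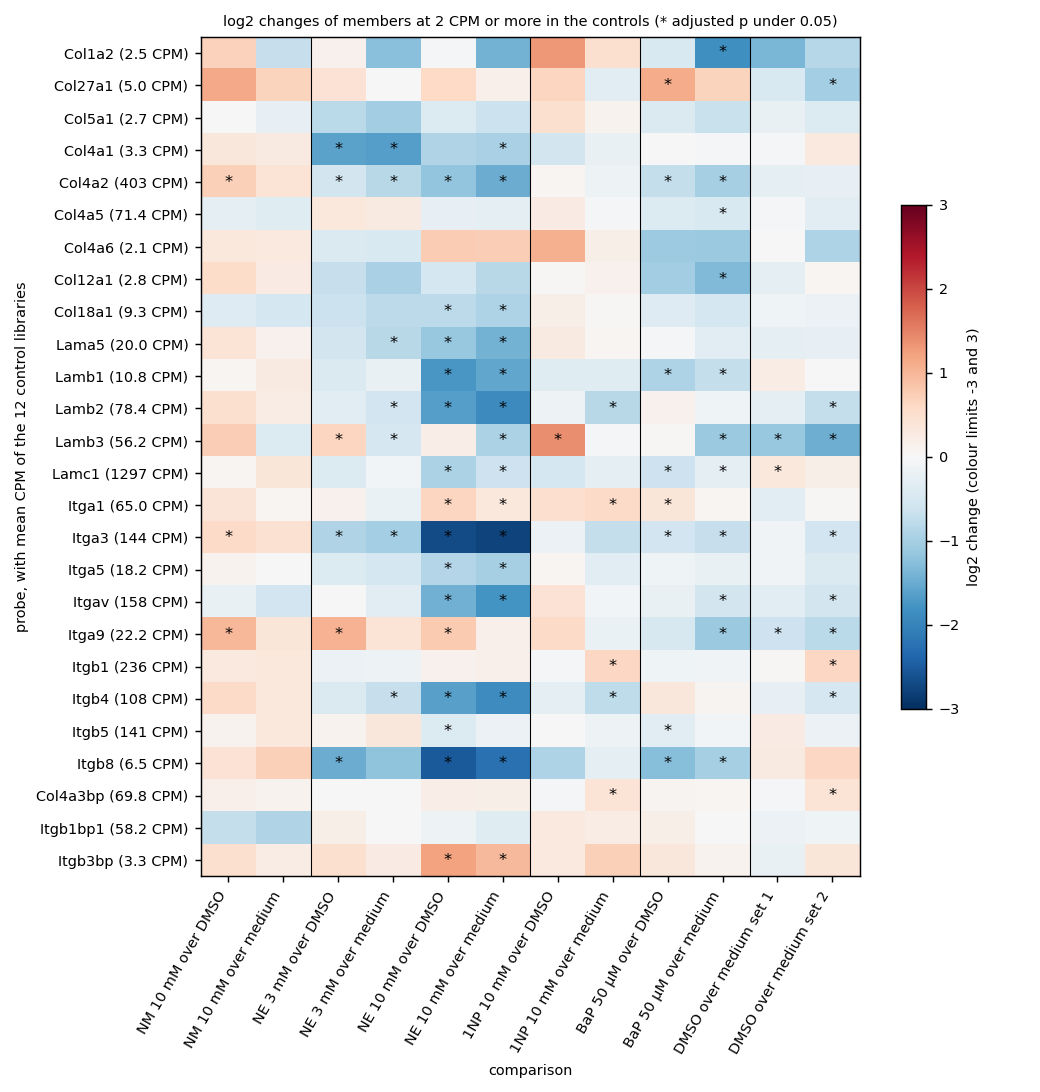
Log2 change (colour, limits -3 to 3) of 26 members with at least 2 CPM in the control libraries (rows, by role) in 12 comparisons (columns), an asterisk marking an adjusted p under 0.05. Itga3 stands at -2.67 for NE 10 mM over DMSO, and Itgb1 and Col4a5 are called in neither NE 10 mM column.

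For members that moved together, the promoter windows of RefSeq (GRCr8, 250 bases before to 50 after the gene's start) were searched on both strands for 5 short motifs. The windows of 3 genes are printed because they carry the contrast above: Itga3 and Col4a2, which fell at NE 10 mM, and Itgb1, which was not called. They lie at chr10:80518852-80519151 (minus strand), chr16:84885471-84885770 (minus strand) and chr19:73602027-73602326 (plus strand), and capitals mark the GC box, GGGCGG or its complement CCGCCC.
Itga3: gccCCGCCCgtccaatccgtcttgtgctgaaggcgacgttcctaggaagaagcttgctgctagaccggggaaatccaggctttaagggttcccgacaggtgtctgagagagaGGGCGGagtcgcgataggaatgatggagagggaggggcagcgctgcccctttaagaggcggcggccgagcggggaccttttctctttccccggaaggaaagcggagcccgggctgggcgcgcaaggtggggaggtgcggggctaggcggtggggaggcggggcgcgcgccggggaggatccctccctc
Col4a2: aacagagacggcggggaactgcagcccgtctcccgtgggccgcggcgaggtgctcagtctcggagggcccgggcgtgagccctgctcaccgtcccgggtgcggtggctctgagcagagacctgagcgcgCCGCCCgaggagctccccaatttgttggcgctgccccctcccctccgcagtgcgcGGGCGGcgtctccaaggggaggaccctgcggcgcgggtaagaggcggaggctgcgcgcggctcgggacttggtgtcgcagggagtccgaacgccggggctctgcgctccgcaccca
Itgb1: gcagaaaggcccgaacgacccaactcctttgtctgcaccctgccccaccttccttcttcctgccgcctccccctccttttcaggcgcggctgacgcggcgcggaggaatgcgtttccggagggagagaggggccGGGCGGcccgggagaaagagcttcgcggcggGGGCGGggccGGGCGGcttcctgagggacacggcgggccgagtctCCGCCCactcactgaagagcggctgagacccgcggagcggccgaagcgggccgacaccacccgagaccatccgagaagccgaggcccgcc
The GC box stood in 9 of 9 windows found for the 12 members lower against both controls, in 13 of 24 windows (54.2%) of the other kept members, in 60.8% of the 10151 windows of all kept probes and in 33.1% of all 33469 windows. All 3 printed windows hold it, Itgb1 included, so it does not separate the gene that was not called from those that fell. The AP-1 motif TGANTCA was in 0 of the 9 windows and in 5.11% of those of all kept probes. The TEAD motif GGAATG was in 3 of 9 (11.1% of those of all kept probes) and the core of the AhR motif, GCGTG, in 5 of 9 (48.5%). The E-box CACGTG was in 0 of 9 (9.07%). None of these strings contains another. Col4a1 and Col4a2 are transcribed head to head, and their windows share 176 bases on chromosome 16. A match of letters describes the window and shows no binding.

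At lower concentrations of NE part of the group was lower as well. At 3 mM, 5 members fell and 2 rose against DMSO (6.13% of all probes called) and 10 fell and none rose against medium (11.4%). Against both controls 4 were lower, among them Col4a1, Itga3 and Col4a2 (1.94% of all probes were lower against both). Itga3 had 55.4, 58.6 and 72.9 CPM at NE 3 mM, under every control well, and fell by 0.91 against DMSO and 1.01 against medium. Col4a2, with 203, 215 and 223 CPM, fell by 0.54 and 0.83, also without overlap. Col4a1, the other chain of the common type IV trimer, had 0.862, 1.7 and 0.979 CPM at NE 3 mM, against 4.38, 4.03 and 2.34 CPM in DMSO wells and 4.18, 2.88 and 4.44 CPM in medium wells, a fall of 1.60 and 1.65 in a low probe. At NE 10 mM Col4a1 was called lower against medium alone, by 0.96, less than at 3 mM. That call was lost in 7 of 13 alternatives. Of the 4 members lower against both controls, 2 kept both calls under every alternative processing run, Itga3 among them. Col4a2 lost its call against DMSO in 5 of 13 alternatives, and Col4a1 in 4 of 13. Itgb8 fell by 1.48 against DMSO, and Lama5 (-0.83), Lamb2 (-0.58) and Itgb4 (-0.69) fell against medium. Lamb3 differed in sign with the control, 0.64 over DMSO and -0.51 over medium. The count against DMSO was 3 without DMSO replicate 1, without DMSO replicate 2 or without NE 3 mM replicate 3, and 4 without NE 3 mM replicate 1; against medium it was 6 without medium replicate 3.

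Over the 8 NE concentrations, ranked low to high and fitted with no control library, 14 members fell and 5 rose with rank (25.1% of all probes called). Among them, log2 changes per rank were steep in Itga3 (-0.26), Itgb8 (-0.24), Col4a1 (-0.20), Col4a2 (-0.18) and Itgb4 (-0.17). Itga3 had 154, 156 and 145 CPM at 0.003 mM, 119, 109 and 151 CPM at 0.3 mM and 107, 91.8 and 129 CPM at 1 mM, and its wells at 1 mM lay under those at 0.003 mM while they overlapped DMSO. The number of called members was 9 without replicate 1 and 10 without replicate 2 of every concentration.

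**Figure D2:**
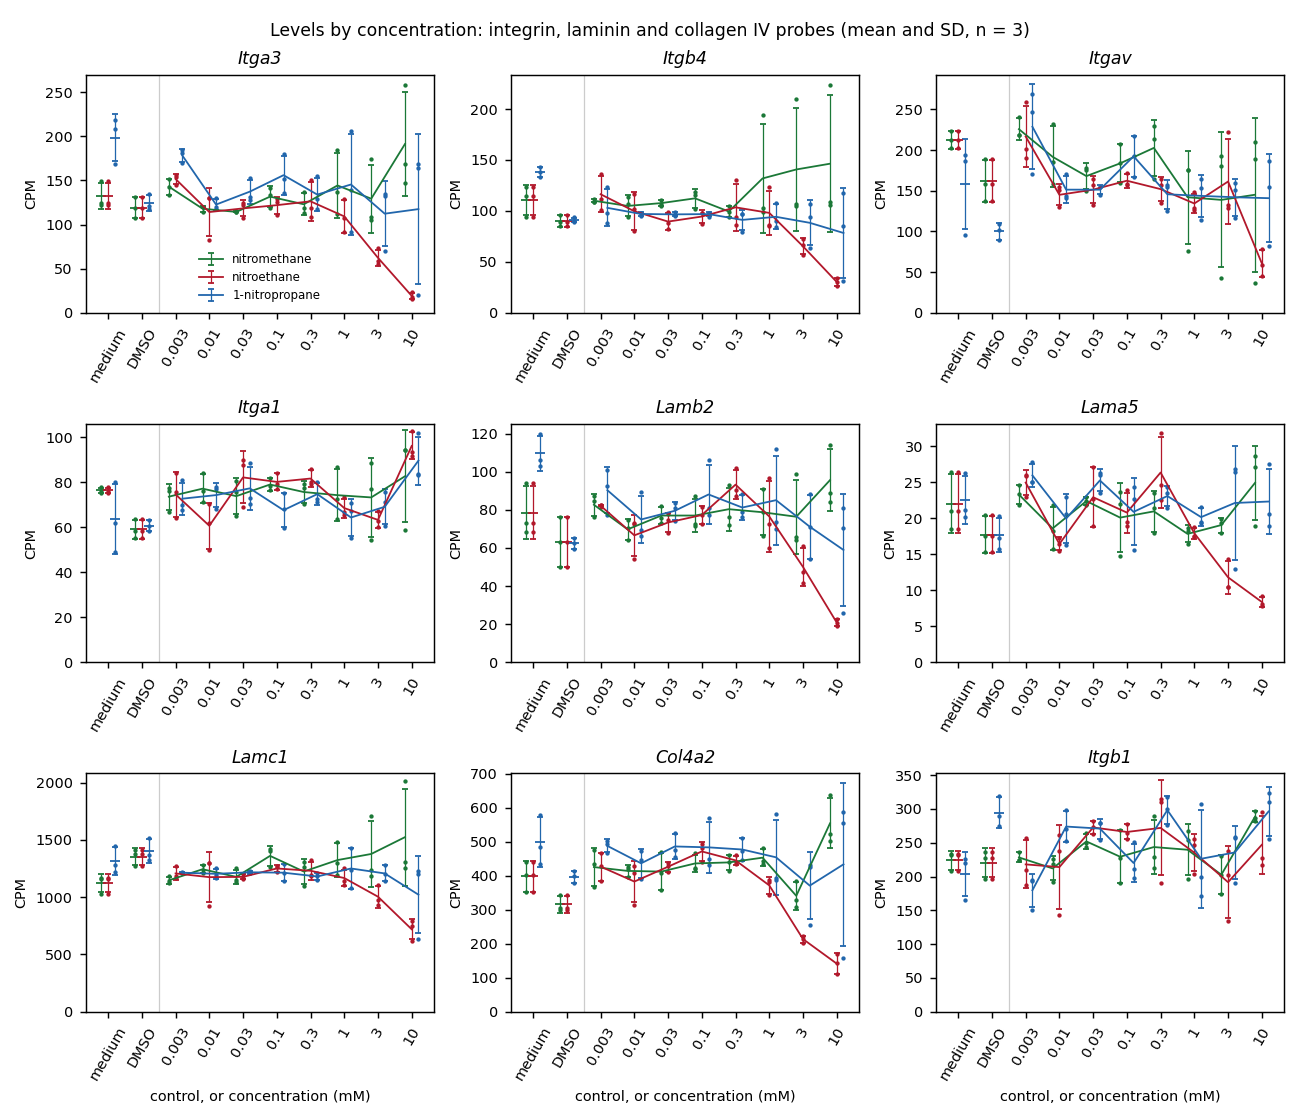
CPM of 9 members (panels, linear axis from 0) in medium, in DMSO and at 8 rising concentrations (mM) of each nitroalkane; lines are means, bars SD and dots the 3 wells of a group. The NE line of Itga3, Itgb4 and Col4a2 drops at 3 and 10 mM, and the NE 10 mM wells of Itgb1 overlap those of its controls apart from a well at 296 CPM.

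NM at 10 mM gave few calls among these genes and none downward. Against DMSO, 4 members rose and none fell (7.02% of all probes called), and against medium none was called (0.696%; 4 members had an unadjusted p under 0.05, and DESeq2 called 1). Col4a2 had 501, 524 and 638 CPM in NM 10 mM wells, against 300, 343 and 304 CPM in DMSO wells and 402, 351 and 442 CPM in medium wells, above every control well. It rose by 0.70 ± 0.11 against DMSO (edgeR adjusted p = 0.000154), and against medium the difference was 0.41 (adjusted p = 0.0794). Itga9, an alpha chain that binds tenascin, rose by 1.00 against DMSO, with 24.6, 23.8 and 35.1 CPM in NM wells, 14.2, 9.22 and 15.2 CPM in DMSO wells and 19, 21.2 and 21.5 CPM in medium wells. Itga3 rose by 0.57 ± 0.161 (edgeR adjusted p = 0.0288), with NM wells at 147, 169 and 258 CPM. Col7a1, the anchoring fibril collagen, rose by 4.08 at low counts. Its DMSO wells held 2, 0 and 1 counts and its medium wells 9, 15 and 19, and DMSO over medium was itself called in set 1 (-3.67). Against medium Col7a1 was not called under NM.

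NM 10 mM replicate 3 stood apart within these genes as well. Itgav had 210, 189 and 36.3 CPM in the NM 10 mM wells, and Lamb3 85, 84.8 and 31.6 CPM, with replicate 3 the low value each time. In the other direction Itgb4 had 106, 109 and 224 CPM and Lamc1 1250, 1310 and 2010 CPM. Without that library, 4 members rose against DMSO and none fell (4.1% of all probes called): Col4a2, Col7a1, Itga1 (0.62) and Lamb3 (1.11). Itga3 and Itga9 were thus called with the library and not without it, where Itga9 stood at 0.86 (edgeR adjusted p = 0.0503) and Itga3 at 0.35 (adjusted p = 0.283). Against medium no member was called without it (0.197%). Without DMSO replicate 2 of set 1 the count was 2.

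1NP at 10 mM changed few members, and its wells differed among themselves. Against DMSO of its set, 2 members rose (1.67% of all probes called) and against medium 4 rose and 2 fell (11.4%). Itga3 had 164, 169 and 19.6 CPM in 1NP 10 mM wells, against 121, 135 and 118 CPM in DMSO wells and 169, 219 and 208 CPM in medium wells. Col4a2 had 554, 589 and 158 CPM in 1NP wells, against 398, 413 and 379 CPM in DMSO wells and 484, 435 and 579 CPM in medium wells. The library labelled replicate 3 was the low one in both, and its Lamb2 (80.8, 70.2 and 25.8 CPM), Itgb4 (85.6, 118 and 31.4 CPM) and Itgb8 (4.72, 9.5 and 0.352 CPM) were low likewise. These values lie at or near those of the NE 10 mM wells.

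Lamb3 rose against DMSO by 1.40 ± 0.181 (edgeR adjusted p = 1.56e-05), with 65, 63.9 and 77.9 CPM in 1NP 10 mM wells, 27.1, 22.1 and 26.2 CPM in DMSO wells and 86, 91.8 and 48.3 CPM in medium wells, and its 1NP wells overlapped medium. Col6a2, the other member called against DMSO and the only one called upward against both controls (0.197% of all probes were), had 0.81, 1.9 and 21.9 CPM in 1NP wells and so rests on replicate 3. Against medium, Itgb1 (0.61), Itga1 (0.58) and Col4a3bp (0.41) rose and Lamb2 (-0.83) and Itgb4 (-0.75) fell. Without the library labelled 1NP 10 mM replicate 3, 4 members rose against DMSO (3.62% of all probes called), among them Lamb3 (1.30) and Itgav (0.71), and against medium Itgb1 alone rose (0.67; 1.38%). No member fell without it. The DMSO count was 4 when any single 1NP 10 mM well was left out and 1 without DMSO replicate 4 or replicate 6, and the medium count was 1 without medium replicate 5.

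**Figure D3:**
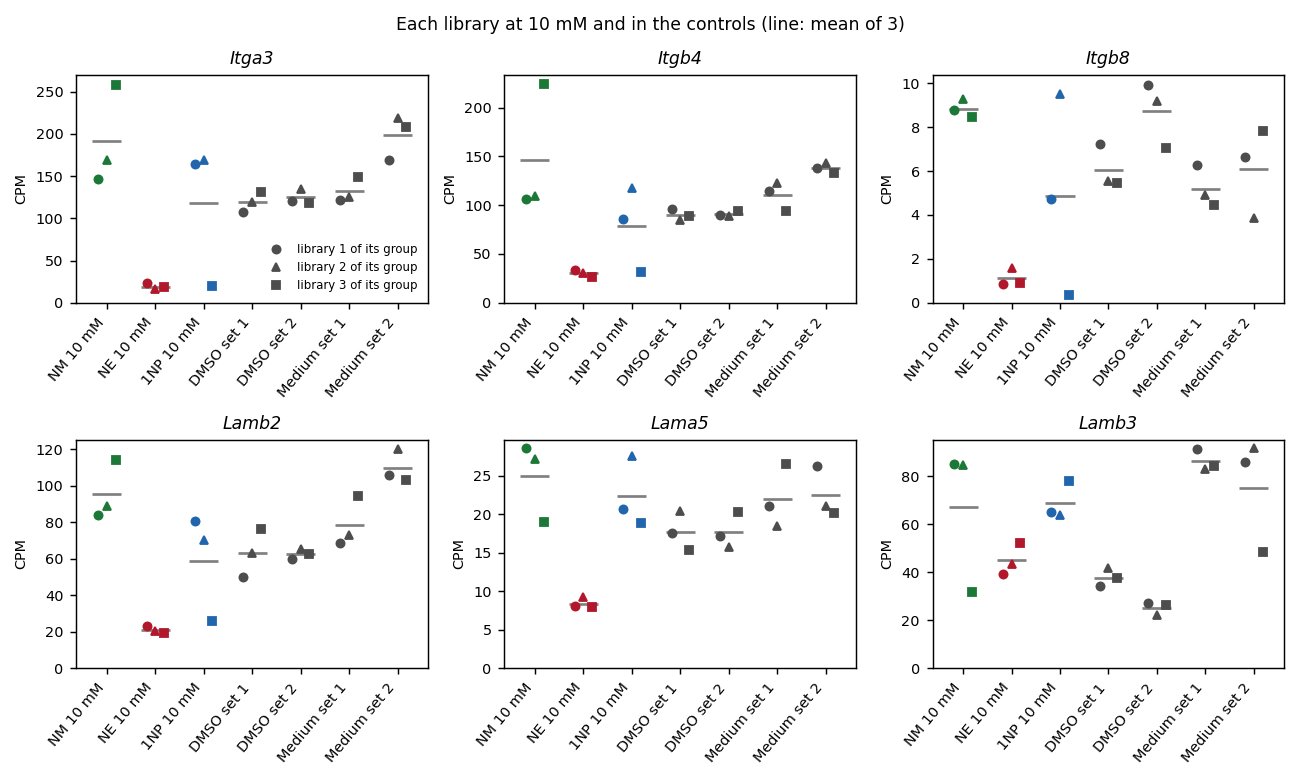
CPM of 6 members in each library at 10 mM NM, NE and 1NP and in the DMSO and medium wells of both sets (dots, linear axis from 0). NE wells lie low in Itga3, Itgb4, Itgb8, Lamb2 and Lama5, the library labelled 1NP 10 mM replicate 3 lies with them in Itga3 (19.6 CPM), and Lamb3 shows low DMSO wells in both sets.

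The nitroalkanes differ in the length of the carbon chain that carries the nitro group, which grows by 1 carbon from NM to NE and by 1 more to 1NP, and they were compared at matched concentrations. NE and NM share set 1 and were compared directly, while 1NP was compared through the effect over DMSO of its own set, with p-values adjusted over all probes in each of 3 pairs. NE over NM at 10 mM gave 16 members lower and 2 higher, while of all probes 31.7% were called, 17.4% lower and 14.2% higher. The differences were -3.26 for Itga3 (95% interval -3.88 to -2.64), -2.97 for Itgb8, -2.23 for Itgb4, -2.16 for Lamb2 and -1.91 for Col4a2. Lama5 (-1.56), Itgav (-1.22) and Lamc1 (-1.02) were also lower under NE. The call of Itgav was lost without NE 10 mM replicate 2 (-0.98, edgeR adjusted p = 0.0519) and under 3 of 13 alternatives in all, with an adjusted p of up to 0.263. The 2 higher members were Col20a1 and Col11a2, both near the detection floor. Without NE 10 mM replicate 2 there were 17 lower and 0 higher (30.1% of all probes called), and without NM 10 mM replicate 3 there were 14 lower and 1 higher, Col20a1 (24.7%). Of the 18 members with at least 10 CPM, 12 were lower and none higher. No difference was called for Itgb1 (-0.18, interval -0.55 to 0.20), Itga1 (0.25, -0.06 to 0.55) or Col4a5 (0.03, -0.35 to 0.42).

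1NP over NE at 10 mM gave 9 members higher and none lower (5.28% of all probes called, 4.63% higher), among them Itga3 (2.54), Itgav (1.89), Lamb2 (1.53), Lama5 (1.45), Lamb1 (1.42), Itgb4 (1.37), Col4a2 (1.27) and Lamb3 (1.24). Without the library labelled 1NP 10 mM replicate 3 there were 13 higher and 1 lower (18.1%), and without NE 10 mM replicate 2 there were 8 higher and none lower (3.76%). In the latter Itgav (1.65, edgeR adjusted p = 0.0558) and Lamb1 (1.19, adjusted p = 0.0991) lost their calls. Itgax, a low probe, gained a call there (5.05, adjusted p = 0.0228). Lamb1 lost its call in 8 of 19 alternatives in all. 1NP over NM at 10 mM called no member with edgeR (0.227% of all probes), with 9 at an unadjusted p under 0.05. Its intervals were wide: Itga3 -0.73 (-1.51 to 0.06), Itgb4 -0.86 (-1.48 to -0.24) and Col4a2 -0.64 (-1.19 to -0.08). The count was 5 without 1NP replicate 2, 2 without 1NP replicate 1, 1 without NM replicate 1 and none without 1NP replicate 3. At 3 mM, NE over NM gave Itga3 (-0.97, edgeR adjusted p = 0.0434) and Itgb4 (-1.03, adjusted p = 0.0074) lower and no member higher (3.5% of all probes called), and neither 1NP pair called a probe (0%). Over the 3 pairs at 3 mM the count was 0 without replicate 1, 1 without replicate 2 and 4 without replicate 3 of the 3 mM wells. NM 3 mM replicate 1 correlated at only 0.9359 with the rest of its group.

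**Figure D4:**
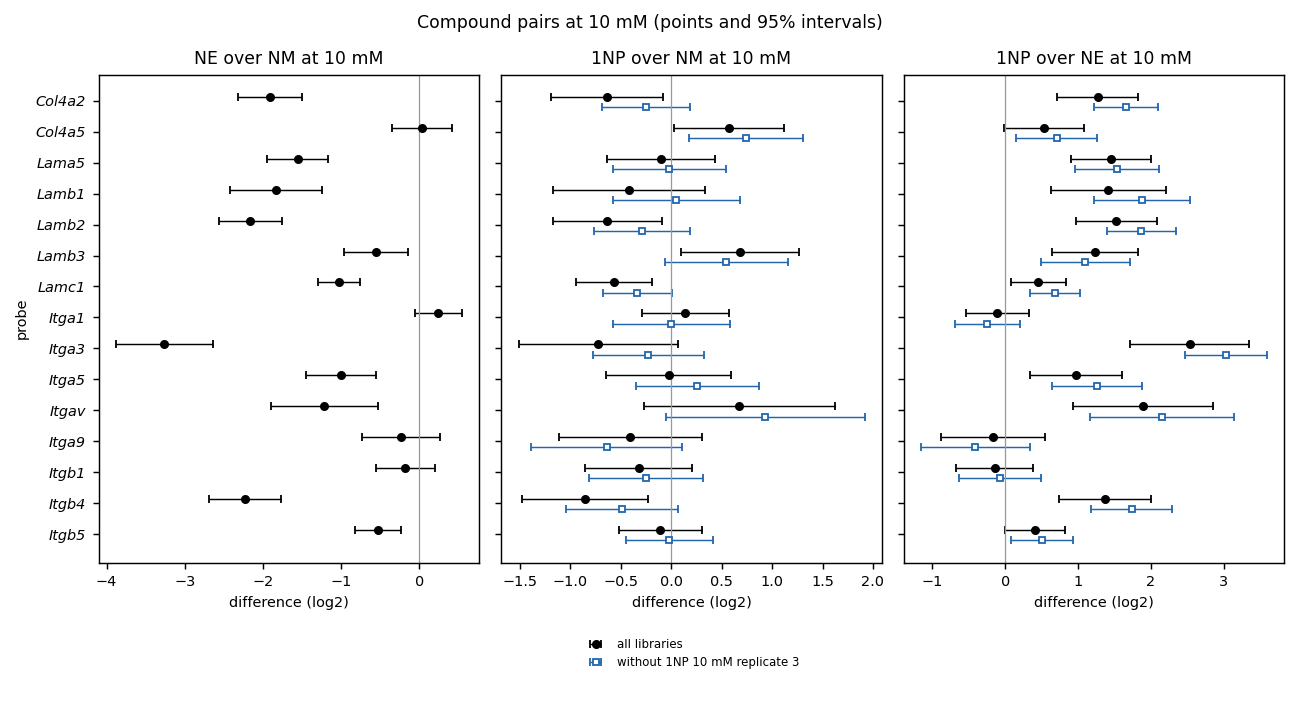
Log2 difference between compounds at 10 mM (points, with bars for 95% intervals) for 15 members in the pairs NE over NM, 1NP over NE and 1NP over NM; open squares leave out the library labelled 1NP 10 mM replicate 3. Itga3 lies at -3.26 for NE over NM and at 2.54 for 1NP over NE, and the interval of Itgb1 for NE over NM spans 0.

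The 2 controls differed from each other in some of these genes. DMSO over medium gave 3 members lower and 2 higher in set 1 (6.45% of all probes called) and 9 lower and 2 higher in set 2 (20.5%). Lamb3 fell in both sets, by 1.14 and 1.47, and Itga9 by 0.62 and 0.82. Lamb3 had 34.1, 41.6 and 37.7 CPM in DMSO wells of set 1 against 91.4, 83.2 and 84.4 CPM in medium wells, and no DMSO well of either set reached its medium wells. In set 2 DMSO wells also had less Lamb2 (-0.71), Itga3 (-0.58), Itgav (-0.55) and Itgb4 (-0.50) and more Itgb1 (0.63). The difference between sets was called for no member by edgeR (1.23% of all probes; 6 members had an unadjusted p under 0.05, and DESeq2 called 1), and with medium replicate 6 of set 2 left out the count was 3, with medium replicate 4 left out it was 2. For set 1 alone the DMSO-to-medium count was 2 without either DMSO replicate 2 or medium replicate 3. In set 2 it was 7 once DMSO replicate 4 or medium replicate 5 was left out.

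The lower concentrations of the 3 nitroalkanes gave 20 comparisons with each control, each testing 44 members. Against DMSO 31 member calls were made in all, where 2.77% of the tests of all probes were called. Against medium none was made (0.178% of the tests of all probes, and DESeq2 called 5 members). Lamb3 was called higher than DMSO at NE 0.003 to 1 mM (log2 differences 0.52 to 1.28) and at 1NP 0.003 to 3 mM (1.03 to 1.61). Among the NM concentrations it was called at 0.003 mM alone (1.09; 0.63 to 0.96 at the others below 10 mM), and it was called against medium at none of these. Ranked over the 8 concentrations with no control library, NM gave 2 members higher, Itgb8 (0.11 per rank) and Col4a3bp (0.04), beside 8.51% of all probes, and 1NP gave Col6a2 (0.59), beside 4.23%. Both NM calls were lost when any replicate number was left out, and the 1NP count was 2 without replicate 1 and 0 without replicate 3. Against medium the lower concentrations gave 1 call without the 1NP wells numbered 3 and 2 without medium replicate 6 of set 2.

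BaP lowered some of the members that NE lowered. Against DMSO 6 fell and 2 rose (8.26% of all probes called), against medium 13 fell and 1 rose (17.8%), and 5 fell against both (3.34%). Col4a2 had 214, 181 and 214 CPM in BaP wells, against 300, 343 and 304 CPM in DMSO wells and 402, 351 and 442 CPM in medium wells, and fell by 0.71 and 0.99 with no overlap. Itga3 had 75.2, 74.6 and 101 CPM in BaP wells, under every control well, and fell by 0.58 and 0.68. The others were Itgb8, which fell by 1.28 and 1.00, Lamb1 (-0.92 and -0.71) and Lamc1 (-0.62 and -0.30). Of these 5 members, 3 kept both calls under every alternative processing run: Col4a2, Itga3 and Lamc1. Against medium, Itgb8 lost its call in 4 of 12 alternatives and Lamb1 in 5 of 12. Itgb4, at 121, 116 and 119 CPM under BaP, was called against neither control. Its BaP wells lay above the DMSO wells (96, 84.8 and 89.3 CPM) and overlapped the medium wells (115, 123 and 94.5 CPM). The difference between BaP and NE was not tested, and they share their DMSO and medium wells. The bile duct markers described below were lower under BaP too: of 6 tested probes, 4 fell and none rose against either control, where 4.64% and 9.19% of all probes fell, and their sum was 402 to 451 CPM in BaP wells. Their part in the BaP result was not tested. The DMSO count was 5 without DMSO replicate 2, and the medium count was 7 without medium replicate 3, 9 without medium replicate 2 and 8 without BaP replicate 1 or replicate 2.

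CITCO, rifampin and WY changed no member in the same direction against both controls. Against DMSO, CITCO at 20 µM raised Itga9 (0.87; 0.764% of all probes called), rifampin at 20 µM raised Col4a2 (0.50; 2.69%), and WY in set 1 lowered Itgb8 (-1.05) and Lamc1 (-0.25; 4.31%). WY in set 2 gave no call against DMSO (0.817%). Against medium, CITCO at 20 µM gave 7 lower and 3 higher (13.5%) and WY in set 2 gave 9 lower and 1 higher (14.4%). Lamb3 was lower than medium under both doses of CITCO, both doses of rifampin and both WY groups, by 0.62 to 1.49 on the log2 scale, in comparisons where 2.37% (CITCO at 10 µM), 0.235% (rifampin at 20 µM), 2.91% (rifampin at 40 µM) and 5.18% (WY in set 1) of all probes were called. It was called against DMSO under none of them.

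Genes that work with these families were counted in lists, to be read beside the shares of all probes at NE 10 mM (15% lower and 13.6% higher against DMSO, 16.9% lower and 16.5% higher against medium). At NE 10 mM, of 11 tested probes of other basement membrane and matrix glycoproteins, 6 fell and none rose against DMSO and 7 fell and 1 rose against medium. Thbs1, the matrix protein thrombospondin that activates TGF-beta, had 283, 164 and 197 CPM in NE wells, against 1280, 1560 and 1260 CPM in DMSO wells and 1300, 1210 and 1470 CPM in medium wells, far under every control well (-2.70 and -2.61). Nid2, a nidogen that links laminin to type IV collagen, fell by 3.42 and 2.58, and Agrn, a heparan sulfate proteoglycan that binds laminin, by 2.04 and 2.17. Of 8 probes of other matrix receptors, 6 fell and 1 rose against DMSO and 5 fell and 1 rose against medium. Bcam, a receptor for laminins that contain Lama5, had 0.99, 3.99 and 0.444 CPM in NE wells, against 18.9, 21 and 26.7 CPM in DMSO wells and 20.3, 20.7 and 26.8 CPM in medium wells (-3.76 and -3.74). The syndecans, proteoglycan co-receptors, went both ways: Sdc3 fell by 2.19 and 2.49, and Sdc2 rose by 2.00 and 2.29.

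Of 27 probes of the adhesion machinery inside the cell, 10 fell and 2 rose against DMSO and 14 fell and 2 rose against medium, with the tyrosine kinase Src lower by 1.76 and 2.25. Of 19 probes of the TGF-beta pathway, 6 fell against DMSO and 7 against medium and none rose, Tgfb1 among them (-1.98 and -1.94). Of 22 probes of collagen folding, modification and crosslinking, 6 fell and 3 rose against either control. Called in either direction were thus 6 of 19 TGF-beta probes and 9 of 22 collagen-modifying probes against DMSO, beside 28.6% of all probes, and 7 of 19 and 9 of 22 against medium, beside 33.3%. Without NE 10 mM replicate 2 the falls against DMSO and then medium were 6 and 8 for the glycoproteins, 6 and 5 for the receptors, 10 and 13 for the adhesion machinery, 5 and 8 for the TGF-beta pathway and 4 and 4 for the collagen-modifying probes, while 12.7% and 15.2% of all probes fell. Serpinh1, the collagen chaperone of the endoplasmic reticulum, fell by 1.31 and 1.68, while P4hb, a subunit of prolyl hydroxylase and a disulfide isomerase of many secreted proteins, rose by 1.03 and 1.59. Loxl1, a crosslinking enzyme, was at 0 in all NE wells, against 3.43, 4.61 and 1.9 CPM in DMSO wells and 2.09, 1.88 and 3.53 CPM in medium wells. NM at 10 mM raised Sdc3 against both controls (1.21 and 0.91). 1NP over NE at 10 mM gave 9 of the 27 adhesion probes higher, 5 of the 11 glycoprotein probes, 4 of the 8 receptor probes, 5 of the 19 TGF-beta probes and 2 of the 22 collagen-modifying probes, and none lower, while 4.63% of all probes were higher. Without the library labelled 1NP 10 mM replicate 3, 11 adhesion, 7 glycoprotein, 5 receptor, 6 TGF-beta and 5 collagen-modifying probes were higher and 1 adhesion, 1 receptor and 1 collagen-modifying probe lower, where 10.2% of all probes were higher and 7.81% lower. Without NE 10 mM replicate 2 5 adhesion, 5 glycoprotein, 2 receptor, 1 TGF-beta and 2 collagen-modifying probes were higher, beside 3.23% of all probes.

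Markers of cell types that could carry these genes were read beside them. The 9 hepatocyte markers summed to 8260 to 10900 CPM in NE 10 mM wells and 11400 to 12100 CPM in NM 10 mM wells. In set 1 they summed to 20300 to 21900 CPM in DMSO wells and 9880 to 12600 CPM in medium wells. In set 2 the sum was 10100 to 10900 CPM in 1NP 10 mM wells, 19500 to 21700 CPM in DMSO wells and 10400 to 14300 CPM in medium wells. At NE 10 mM 6 hepatocyte markers fell and 1 rose against DMSO (15% and 13.6% of all probes). Against medium 1 fell and 3 rose (16.9% and 16.5%). Without NE 10 mM replicate 2, 6 fell and none rose against DMSO, and none fell and 4 rose against medium. Of 6 tested probes of bile duct epithelium, 5 fell and none rose against DMSO at NE 10 mM, and 4 fell and none rose against medium, beside 15% and 16.9% of all probes lower. Without NE 10 mM replicate 2 these bile duct counts were the same. The bile duct sum was 237 to 294 CPM in NE 10 mM wells, 330 to 380 CPM in NE 3 mM wells and 872 to 1260 CPM in NM 10 mM wells. In set 1 it was 580 to 656 CPM in DMSO wells and 658 to 777 CPM in medium wells. In set 2 it was 268 to 788 CPM in 1NP 10 mM wells, 645 to 775 CPM in DMSO wells and 885 to 1050 CPM in medium wells. Sox9, a transcription factor of bile duct cells, had 111, 96.7 and 141 CPM in NE wells and 285, 337 and 384 CPM in DMSO wells. Epcam, a surface protein of those cells, had 141, 110 and 126 CPM in NE wells and 240, 227 and 217 CPM in DMSO wells. In these wells Sox9 and Epcam made up most of the bile duct sum. Krt7 and Cftr, which define bile duct epithelium, were near 0. Of the 12 stellate cell and fibroblast markers only Reln passed the filter, and outside NE 10 mM replicate 2 the other probes stayed at or under 0.794 CPM. Their sum, nearly all Reln, was 241 to 317 CPM in NE 10 mM wells, against 400 to 412 CPM in DMSO wells and 330 to 379 CPM in medium wells. Endothelial markers summed to at most 1.42 CPM outside NE 10 mM replicate 2, where they summed to 19.3 CPM, and Kupffer cell and leukocyte markers to 1.47 to 8.75 CPM outside that library, where they summed to 22.2 CPM. At NE 10 mM the bile duct markers were lower, as were the laminin and integrin genes that fell against both controls. Itga1 rose there, and Itgb1 was not called. The part of the bile duct markers in the result was not tested.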

How the data were processed

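The authors deposited raw read counts per detector probe, with no normalization. Per the submitters' processing notes, FastQC, Bowtie, R 3.5.3 and DESeq2 1.28.1 were used, with no role stated, and neither the aligner version nor the genome build is stated (not given in the sources used here). Sample groups come from the labels. Titles give nitroalkane doses in µM and the protocol in mM, which was taken. For DMSO the title has 0.5 and the protocol 0.2%. The formaldehyde control was not analysed here. The labels call the panel human, while the symbols are written as rat symbols. Counts were tested with edgeR 4.0.16 in R 4.3.3 across all 13223 probes with at least 1 CPM in 3 libraries: TMM factors, glmQLFit (robust) and glmQLFTest, Benjamini-Hochberg adjustment over those probes, called under 0.05. Each nitroalkane was fitted with both controls of its set. Standard errors are the absolute log2 change over the square root of F, and 95% intervals use the normal quantile. CPM divides by the library total. In simulated counts with log2 changes of -2, -1, 1 and 2 for NE 10 mM over medium, 50, 33, 41 and 50 of 50 changed probes each were called, with 11 false calls among 13223. No 2 libraries of a group agreed within counting noise (smallest chi-square per degree of freedom 2.822). The members, lists and roles were chosen with earlier results of these data known. Named members were drawn from those called against both controls, those with the highest control levels in each role, and the 5 largest called changes each way. Not every member that met this is described. Itgb5 (-0.41 for NE 10 mM over DMSO), Col27a1 and Itga2 are among those left out. Same-numbered wells deviated together in every pair of NE 3 mM and DMSO (r 0.1 to 0.514) and of BaP and DMSO (0.198 to 0.596). Promoter windows came from RefSeq (GRCr8), and motifs were sought on both strands. Alternatives are given in the closing section, DESeq2 1.42.0 among them. Counts of gene lists without single libraries were added after seeing the data. A member is counted in the totals and is not reported here by name.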

Additional observations from a re-analysis of the deposited data

How the results depend on the processing

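Counts of called members are given. Of 1984 alternative values for 156 member results called at first, 1664 kept direction and call, 320 kept direction and lost the call, and 0 reversed. Under DESeq2 the counts were 1 for the difference between sets, 5 for 1NP 10 mM over DMSO, 7 for CITCO, rifampin and WY over DMSO, 6 for the pairs at 3 mM, 48 and 5 for the lower concentrations over DMSO and over medium, and 1 for NM 10 mM over medium. With no filter they were 1 for the difference between sets, 4 for 1NP 10 mM over DMSO, 1 for the pairs at 3 mM, 13 for the lower concentrations over medium and 1 for the NM slope. With only the groups compared in a fit, 1NP 10 mM gave 0 over DMSO, 0 over medium and 0 over NE, NM 10 mM over DMSO 0, the pairs at 3 mM 0, BaP over DMSO 5, NE over NM 9, DMSO over medium in set 1 8, and the lower concentrations 97 over DMSO and 13 over medium, a construction with fewer wells behind each spread. Without the 6 libraries apart from their groups (NE 10 mM replicate 2, NM 10 mM replicate 3, NM 3 mM and 1 mM replicate 1, 1NP 10 mM replicate 3, NE 0.01 mM replicate 3), NM 10 mM gave 9 over DMSO and 2 over medium, NE 3 mM over DMSO 12, 1NP 10 mM 4 over DMSO, 1 over medium and 17 over NE, the pairs at 3 mM 6, the lower concentrations 80 over DMSO and 10 over medium, the NM slope 1 and the 1NP slope 0. The 1NP slope was 0 with filterByExpr and 2 with medium as rank 0, the NM slope 1 with DMSO as rank 0, and 1NP over NM 3 with medium as the control. DESeq2's size factors within edgeR moved no count by more than 1.5 times. For these shifts the cause was not tested unless stated.

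Leaving out a replicate at a time gave 15 to 20 for NE 10 mM over DMSO and 14 to 20 over medium, 3 to 7 and 6 to 11 for NE 3 mM, 2 to 5 and 0 for NM 10 mM, 1 to 4 and 1 to 7 for 1NP 10 mM, 14 to 17 for NE over NM, 6 to 14 for 1NP over NE, 0 to 5 for 1NP over NM, 0 to 4 for the pairs at 3 mM, 5 to 9 and 7 to 13 for BaP, 1 to 5 and 18 to 35 for CITCO, rifampin and WY, 2 to 5 and 7 to 14 for DMSO over medium in sets 1 and 2, 0 to 3 for their difference, 22 to 33 and 0 to 2 for the lower concentrations, and 9 to 18, 0 and 0 to 2 for the slopes of NE, NM and 1NP. With the replicate block NE 3 mM over DMSO gave 7 members and BaP over DMSO 9, with no call lost in either. Same-numbered wells also deviated together for CITCO at 10 µM, rifampin at 20 µM and WY over medium of set 1. Where they did not, the block gave 7 for CITCO, rifampin and WY over DMSO, 2 for the 1NP slope and 1 for the NM slope, and it lost Col4a1 and Lamb3 in NE over NM, Col4a3bp in the NM slope, Itgax in NE 3 mM over medium and Itgb2 in NE 10 mM over medium. 1NP wells share no number with their controls, so no block was possible there. With the stricter filters 39 members (1 CPM in 3 libraries of a group) and 24 members (5 CPM in 3 libraries) were kept. A count of 3 corresponds to at most 0.548 CPM, so members near that level were not measured with useful precision.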
